A study of Mus musculus with 12 samples.

Results

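Transcripts of 41 genes of the centromere, the kinetochore and the mitotic spindle were measured in embryonic stem cells (ESCs) of the mouse and in embryoid bodies (EBs), the aggregates in which ESCs differentiate, on 12 arrays read in 1 colour. The genes were listed by name, and a member was the array feature whose only gene symbol was 1 of the listed names, with the highest-mean feature kept per gene. All 41 were found, each with 1 feature, among 19938 genes with a symbol. The 10880 genes whose signal passed 45, or log2 5.49, on 1 array or more were tested. All 41 members were among those tested, 40 of them above that floor on every array. The exception was Cenpl, which lay between 4.97 and 5.51 and so was close to background throughout. Values are deposited log2 signals, so a difference of 1 is a doubling of signal, and every difference below is one of log2 signals.

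Each of 6 groups held 2 arrays. ESCs and day 7 EBs were either WT, labelled as the HM1 line, or lacked HP1α (HP1αKO, gene Cbx5) or HP1β (HP1βKO, gene Cbx1), both labelled as the R1 line. The methods instead call HM1 the littermate control of the knockouts. If the labels hold, knockout and line cannot be told apart. None of the groups was treated. ESCs grew on gelatin with growth-arrested mouse embryonic fibroblasts as feeders and were sorted for the surface antigen SSEA1, per the methods, and EBs formed in suspension once LIF, the cytokine that holds ESCs undifferentiated, was withdrawn. The labels call the arrays of a group biological replicates, but neither they nor the methods say what was repeated, so p-values measure the spread between these samples, whatever its source.

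Centromeric chromatin carries the histone H3 variant CENP-A, on which a set of inner kinetochore proteins assembles. In mitosis these recruit an outer network that holds spindle microtubules, and the spindle checkpoint delays chromosome separation until every kinetochore is attached. HP1 proteins bind methylated histone H3 in the heterochromatin that flanks centromeres and have partners at the inner centromere, among them the passenger protein INCENP and shugoshin. Most of these genes are transcribed mainly in G2 and mitosis, so their RNA level in a mixed population follows the share of dividing cells. ESCs divide fast, with a short G1. In bulk samples, fewer cells of a type and less RNA per cell cannot be told apart.

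The labels were checked on the arrays. Pou5f1, a pluripotency factor, lay between 11.2 and 11.3 in ESCs and between 6.11 and 8.81 in EBs, highest in EB HP1βKO, and 11 of 12 ESC markers exceeded the floor on every ESC array. The exception, Fut4, was under the floor everywhere. Cbx1 was low, at 7.59 to 7.99, on all 4 HP1βKO arrays. In 2 libraries the Cbx5 level opposed the label, being low (8.29) in that labelled ESC WT 2 and high (9.995) in that labelled ESC HP1αKO 2, so ESC results are also given without both. Replicates 1 and 2 of ESCs differed as well: the mean log2 signal of 14 fibroblast markers was 6.77, 6.02 and 5.74 in replicate 1 of ESC WT, HP1αKO and HP1βKO and 4.78, 4.94 and 4.99 in replicate 2, with 12, 9 and 8 against 6, 6 and 7 of the markers above the floor.

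The question of the first set of comparisons was how the 41 genes changed between ESCs and day 7 EBs of each genotype. Most were lower in EBs, and those that passed the test were mostly lower. In WT, 8 of 41 members were called lower and 2 higher (limma, Benjamini-Hochberg adjusted p under 0.05), while 14.2% of all genes tested were called lower and 22% higher. In HP1αKO, 18 members were called lower and 1 higher, against 16.5% and 25% of all genes. In HP1βKO, 4 were called lower and 1 higher, against 15.1% and 22% of all genes. The share called lower was thus 19.5%, 43.9% and 9.76% of the members, which in this fit is above the share of all genes in WT and HP1αKO and below it in HP1βKO. The median member difference was -0.23, -0.49 and -0.18 in WT, HP1αKO and HP1βKO, where the median of all genes was 0.05, 0.05 and 0.04.

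Those counts, and for WT and HP1βKO the side of the background they lay on, moved with the libraries and the scaling. Leaving out the libraries labelled ESC WT 2 and ESC HP1αKO 2 keeps only replicate 1 in those 2 ESC groups. There the members had a median deviation from their own means of 0.08 and 0.08, against 0.23 and 0.38 on the arrays left out. The median member difference became -0.15 in WT and -0.29 in HP1αKO. In HP1βKO, whose arrays were all kept, it stayed at -0.18, and only the estimate of the spread changed. Without the libraries labelled ESC WT 2 and ESC HP1αKO 2, 5, 13 and 12 members (12.2%, 31.7% and 29.3%) were called lower in WT, HP1αKO and HP1βKO, against 14.1%, 19.2% and 23.5% of all genes, so that the WT share fell below that of all genes and the HP1βKO share rose above it. In WT that fit lost Cenpb, which was higher, and Cenpm, Sgo1 and Aurka, which were lower, and it gained Mis12 as higher. Mis12 was 7.78 on ESC WT 1, the only ESC WT array kept, and 8.45 in the library left out. In HP1αKO that fit lost Cenpn, Cdca8, Bub1, Bub1b, Kif11 and Cenpf, all lower. It gained Ndc80 as lower and Aurkb as higher. With a block for the replicate number in ESCs, whose numbers paired, 15, 24 and 11 members (36.6%, 58.5% and 26.8%) were called lower, against 20.3%, 22% and 20.8% of all genes. With each array centred on its median, 15, 26 and 13 (36.6%, 63.4% and 31.7%) were called lower, against 20.6%, 23.7% and 22%, and in WT 1928 genes were then called higher and 2241 lower, in place of 2391 and 1550. The share in HP1βKO was thus below that of all genes in the first fit and above it in these 3. In either direction, leaving out 1 array at a time gave 3 to 13 calls in WT, 7 to 24 in HP1αKO and 2 to 5 in HP1βKO, and the counts fell by over 1.5 times without either EB array of the genotype or without ESC replicate 2. No call changed its sign in any of these fits.

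Direction was shared more widely than the calls. Of the 41 members, 26 were below 0 in all 3 genotypes, 6 were above 0 in all 3 and 9 had mixed signs. In WT, HP1αKO and HP1βKO taken singly, 31, 33 and 30 were below 0, against 46.47%, 46.52% and 47.1% of all genes. Members called in either direction numbered 10, 19 and 5, against 3941, 4522 and 4038 of the 10880 genes tested. Counts over several genotypes were not made for all genes. Altogether 21 members were called in at least 1 genotype, 11 of them in exactly 1, 7 in 2 and 3 in all 3. The last were Cenpp and Sgo1, lower in EBs, and Zwint, higher. They make up 3 of the 10, 3 of the 19 and 3 of the 5 called in WT, HP1αKO and HP1βKO. The Sgo1 call held in only 6 of 14 alternative settings in WT and in 10 of 14 in HP1βKO. The difference between genotypes was tested directly in limma, and no member passed: 0 were called for HP1αKO, with 0.23% of all genes called, and 0 for HP1βKO, with 1.3%. At an unadjusted p under 0.05 there were 0 members and 2 members (Spc24 and Cenpa), among 615 and 1220 genes. The larger number of calls in HP1αKO and the smaller in HP1βKO are therefore not shown to differ from that in WT. In that test the member with the lowest p was Spc24, whose HP1βKO effect was 0.53 ± 0.19 (SE) higher in EBs than in ESCs (adjusted p = 0.269).

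**Figure D1:**
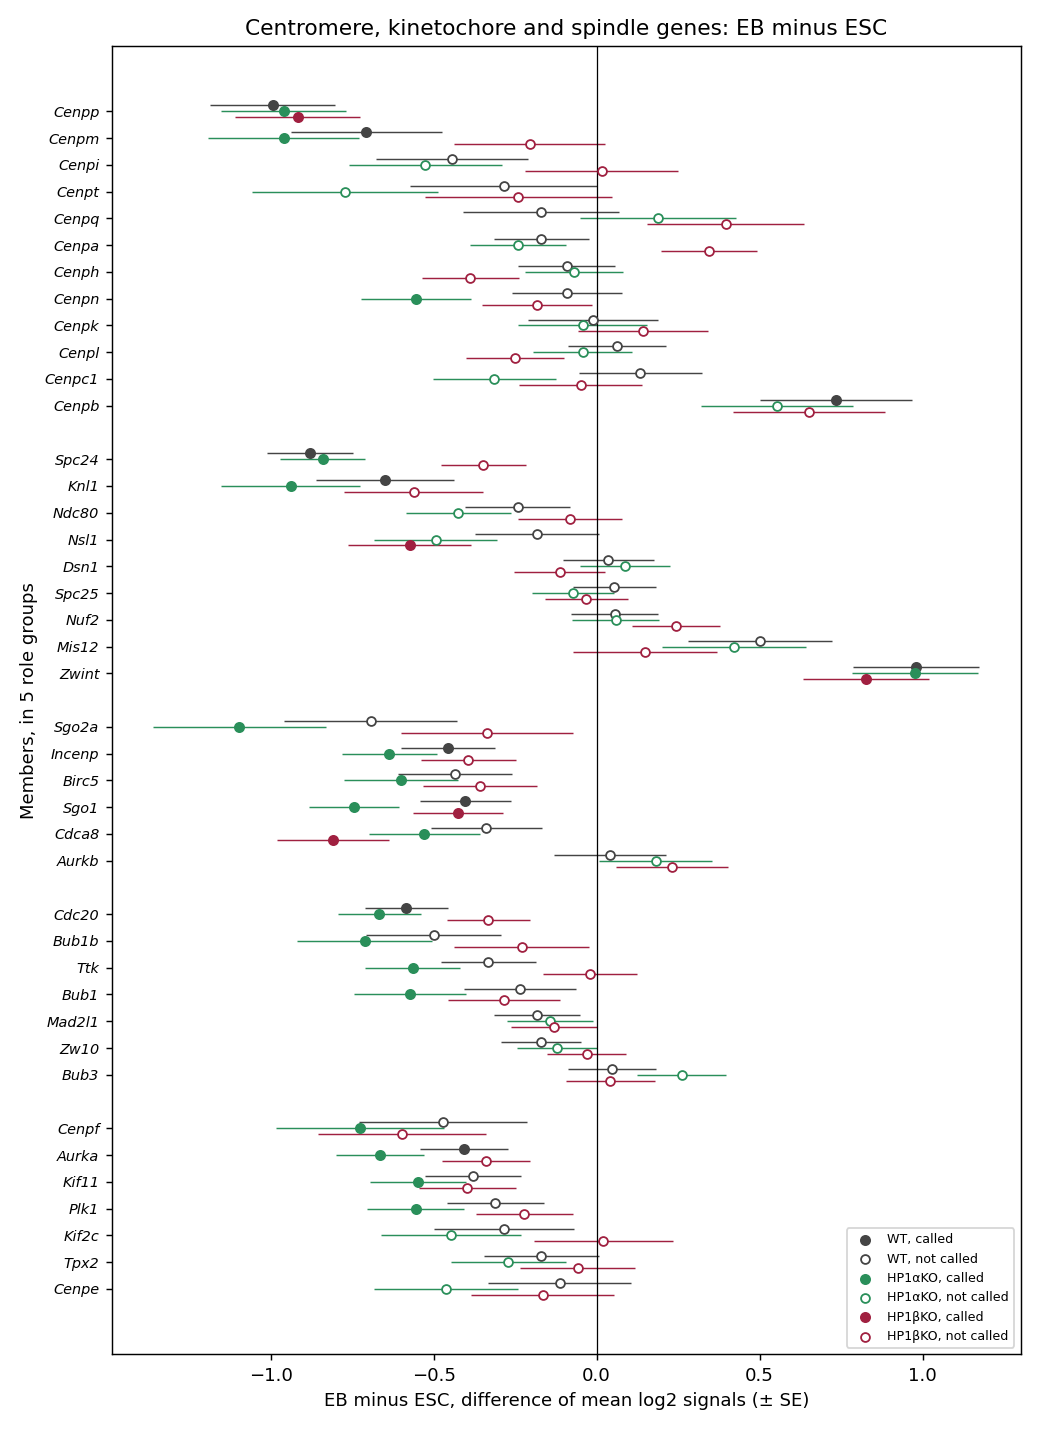
Difference of mean log2 signals between EBs and ESCs (horizontal axis, log2, bars are the SE of the 12-array limma fit) for the 41 members in 5 role groups, with WT in grey, HP1αKO in green and HP1βKO in red and called values as filled points. Zwint is the single member called higher in all 3 genotypes and Cenpp lies near -1 in each; most other points are left of 0.

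Another way to read the same arrays ignores genotype. For 13 of 41 members (31.7%) all 6 EB arrays lay below all 6 ESC arrays, as they did for 17.6% of all genes, and for 2 (4.88%), Cenpb and Zwint, all 6 lay above, as for 23.2% of all genes. The 13 were Cenpp, Spc24, Knl1, Incenp, Cdca8, Sgo1, Sgo2a, Bub1, Bub1b, Cdc20, Aurka, Kif11 and Cenpf, which come from all 5 role groups. As a set the members were not especially variable: the range over 12 arrays had a median of 0.82 for members and 0.95 for all genes tested, and 12 members spanned more than 1.

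Because many members moved together, their promoters were read for the elements known from genes expressed late in the cell cycle: the CHR element (TTTGAA), bound by the DREAM and MuvB complexes, and the CCAAT box (CCAAT), bound by NF-Y. RefSeq promoter windows (build GRCm38.p6, 250 bases before to 50 after each start) matched 36 of 41 members and gave 40 windows. The windows of 7 members are shown from 120 bases before the start to 30 after it, 5′ to 3′ on the gene's strand, with CHR and CCAAT letters on either strand in capitals. On the opposite strand these read TTCAAA and ATTGG. The first 5 show how a CHR element and CCAAT boxes sit together near the start in members of different roles, and the last 2 are Cenpp, called lower in all 3 genotypes, and Zwint, called higher in all 3, neither with a CHR element.
Cdc20, chr4:118437314-118437463, minus strand: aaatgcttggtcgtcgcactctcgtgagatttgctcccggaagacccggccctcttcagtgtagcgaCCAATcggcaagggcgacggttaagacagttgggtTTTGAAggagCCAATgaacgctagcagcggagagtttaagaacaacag
Cenpf, chr1:189688057-189688206, minus strand: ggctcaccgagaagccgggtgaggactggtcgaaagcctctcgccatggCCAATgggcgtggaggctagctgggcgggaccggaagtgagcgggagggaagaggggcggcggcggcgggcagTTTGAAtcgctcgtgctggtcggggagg
Cdca8, chr4:124936888-124937037, minus strand: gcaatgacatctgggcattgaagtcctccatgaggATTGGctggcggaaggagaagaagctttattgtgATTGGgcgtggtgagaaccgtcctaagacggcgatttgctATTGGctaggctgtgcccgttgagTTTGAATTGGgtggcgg
Cenpa, chr5:30666766-30666915, plus strand: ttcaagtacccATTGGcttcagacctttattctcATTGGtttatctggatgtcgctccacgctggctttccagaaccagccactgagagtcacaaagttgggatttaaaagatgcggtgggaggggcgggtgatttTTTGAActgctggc
Kif11, chr19:37376262-37376411, plus strand: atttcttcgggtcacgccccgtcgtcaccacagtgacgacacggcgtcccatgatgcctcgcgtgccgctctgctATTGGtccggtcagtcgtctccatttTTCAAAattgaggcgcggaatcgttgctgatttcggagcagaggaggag
Cenpp, chr13:49652702-49652851, minus strand: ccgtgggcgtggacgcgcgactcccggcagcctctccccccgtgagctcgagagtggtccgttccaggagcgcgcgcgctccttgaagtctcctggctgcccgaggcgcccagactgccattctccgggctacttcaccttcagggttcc
Zwint, chr10:72654726-72654875, plus strand: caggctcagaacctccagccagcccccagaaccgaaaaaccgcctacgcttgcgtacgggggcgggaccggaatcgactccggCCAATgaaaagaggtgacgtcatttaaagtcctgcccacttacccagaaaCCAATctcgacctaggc

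In Cdc20 the CHR element starts 18 bases before the transcription start, between a pair of CCAAT boxes, and in Cdca8 the CHR element and a reversed CCAAT box share an A. In Kif11 both elements lie on the opposite strand. Over all members, 18 of 40 windows (45%) held a CHR element on either strand, against 17.9% of 32851 RefSeq windows and 11.6% of 11159 windows of the genes tested. A CCAAT box was in 29 windows (72.5%), against 37.4% and 37.9%, and both elements were in 14 (35.0%), against 7.0% and 4.7%. An E2F site, written as TTTCCCGC, TTTGGCGC, TTTCGCGC or TTTGCCGC on either strand, was in 4 (10%), against 2.3% and 4.2%. Letters in a window are a description and do not show that a factor binds there.

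The 17 members with a CHR element and the 19 without were set beside their differences. With the element, 3, 10 and 1 members were called lower in EBs in WT, HP1αKO and HP1βKO and 0 higher, with medians of -0.31, -0.55 and -0.22. Without it, 3, 6 and 2 were called lower and 2, 1 and 1 higher, with medians of -0.17, -0.31 and -0.13. The differences of members with the element lay within the range of those without it in each genotype, in WT from -0.65 to 0.06 within -0.99 to 0.98. Both members called higher in WT, Zwint and Cenpb, are among those without.

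Of the 12 genes of centromeric chromatin and the inner kinetochore, 2 were called lower and 1 higher in EBs in WT, 3 lower in HP1αKO and 1 lower in HP1βKO. For this and the later role groups, 14.2%, 16.5% and 15.1% of all genes were called lower in WT, HP1αKO and HP1βKO. The shares called higher were 22%, 25% and 22%. Cenpp encodes a subunit of the constitutive centromere network. Its signal was 7.65 and 7.25 in ESC WT, 7.52 and 7.26 in ESC HP1αKO, and 7.23 and 7.28 in ESC HP1βKO, and it was 6.26 and 6.66, 6.29 and 6.58, and 6.39 and 6.28 in the EBs of the same genotypes. The 6 EB arrays all lay under the 6 ESC arrays. The differences were -0.99 ± 0.19 (SE), -0.96 ± 0.19 and -0.92 ± 0.19 with adjusted p of 0.00405, 0.00397 and 0.00557, or 1.99, 1.95 and 1.89-fold lower. Cenpp was called in every setting run in each genotype.

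Cenpm, a further subunit of that network, was called lower in WT (-0.71 ± 0.23, adjusted p = 0.0394) and HP1αKO (-0.96 ± 0.23, adjusted p = 0.00944). It stood at 7.34 and 8.16 in ESC WT, 8.008 and 8.003 in ESC HP1αKO, and 7.40 and 7.57 in ESC HP1βKO, against 6.96 to 7.40 in EBs. The ESC WT replicates were 0.82 apart, and EB HP1βKO 1, at 7.40, overlapped the ESC arrays. Cenpn, which reads CENP-A nucleosomes, was called lower in HP1αKO alone (-0.55 ± 0.17, adjusted p = 0.0257).

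Cenpb, whose protein binds a short box in the centromeric repeats, went the other way. Its ESC signals were 7.28 and 6.63 in WT, 7.17 and 6.68 in HP1αKO, and 7.00 and 6.73 in HP1βKO, and its EB signals lay between 7.43 and 7.77. All EB arrays were above all ESC arrays, and replicate 1 was above replicate 2 in each ESC group. The difference was 0.73 ± 0.23 in WT (adjusted p = 0.0356), 0.55 ± 0.23 in HP1αKO (adjusted p = 0.0849) and 0.65 ± 0.23 in HP1βKO (adjusted p = 0.0539). The WT call was lost with array centring (adjusted p = 0.0996) and without the 2 ESC libraries (adjusted p = 0.0758).

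Cenpa, which encodes the centromeric histone itself, was not called. Its ESC signals were 8.94 and 9.02 in WT, 8.86 and 9.19 in HP1αKO, and 8.77 and 8.53 in HP1βKO, and its EB signals were 8.77 and 8.85, 8.72 and 8.85, and 8.98 and 9.01. Both HP1βKO ESC arrays were the lowest of the ESCs and both HP1βKO EB arrays the highest of the EBs. Of the others, Cenpt, which links DNA to the outer kinetochore, had the largest uncalled difference, -0.77 ± 0.29 in HP1αKO (adjusted p = 0.056). Cenpc1, Cenph, Cenpi, Cenpk, Cenpl and Cenpq, linkers and subunits of the same network, were not called in any genotype and ranged from -0.52 to 0.40.

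Of the 9 outer kinetochore genes, 2 were called lower and 1 higher in WT and in HP1αKO, and 1 lower and 1 higher in HP1βKO. Of all genes, 14.2%, 16.5% and 15.1% were called lower and 22%, 25% and 22% higher. Zwint, which helps to bring the checkpoint's RZZ complex to the kinetochore, was the member that rose most. It stood at 8.92 and 8.96 in ESC WT, 9.20 and 8.73 in ESC HP1αKO, and 9.24 and 8.78 in ESC HP1βKO, and at 9.86 and 9.98, 9.93 and 9.95, and 9.94 and 9.74 in the EBs. The groups of ESC and EB arrays did not overlap. The differences were 0.98 ± 0.19 in WT, 0.98 ± 0.19 in HP1αKO and 0.83 ± 0.19 in HP1βKO, with adjusted p of 0.00443, 0.00372 and 0.00931, or 1.97, 1.97 and 1.77-fold.

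Spc24 is 1 of the 4 subunits of the Ndc80 complex, the main microtubule coupler. Its ESC signals were 8.46 and 8.73 in WT, 8.54 and 8.68 in HP1αKO, and 8.37 and 8.40 in HP1βKO. Its EB signals were 7.73 and 7.70, 7.71 and 7.83, and 8.02 and 8.06. All EB arrays were below all ESC arrays, with both EB HP1βKO arrays above the other 4 EBs. The difference was -0.88 ± 0.13 in WT (adjusted p = 0.00109), -0.84 ± 0.13 in HP1αKO (adjusted p = 0.00108) and -0.35 ± 0.13 in HP1βKO (adjusted p = 0.0639).

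The subunits of the Ndc80 complex did not share this. Spc25, which pairs with Spc24 in the complex, lay between 8.21 and 8.44 in ESCs and between 8.25 and 8.41 in EBs, so ESC and EB arrays overlapped fully, with differences of 0.05, -0.07 and -0.03 in the 3 genotypes. Nuf2 differed by 0.06, 0.06 and 0.24 and Ndc80 by -0.24, -0.42 and -0.08, and neither was called. On these features, therefore, Spc24 was the only subunit called, and no test compared the subunits with each other.

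Knl1, the platform for the checkpoint kinase Bub1, was called lower in WT (-0.65 ± 0.21, adjusted p = 0.0396) and HP1αKO (-0.94 ± 0.21, adjusted p = 0.00716). It stood at 8.53 and 8.89, 8.32 and 8.98, and 8.41 and 8.58 in ESC WT, HP1αKO and HP1βKO and between 7.64 and 8.10 in EBs, without overlap. Nsl1, of the Mis12 complex, was called lower in HP1βKO (-0.57 ± 0.19, adjusted p = 0.0402), from 6.84 and 7.11 to 6.41 and 6.39. Its partners Mis12 and Dsn1 were not called, at 0.50, 0.42 and 0.15 and at 0.04, 0.09 and -0.11. The 3 measured partners of that complex thus had differences of unlike sign.

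**Figure D2:**
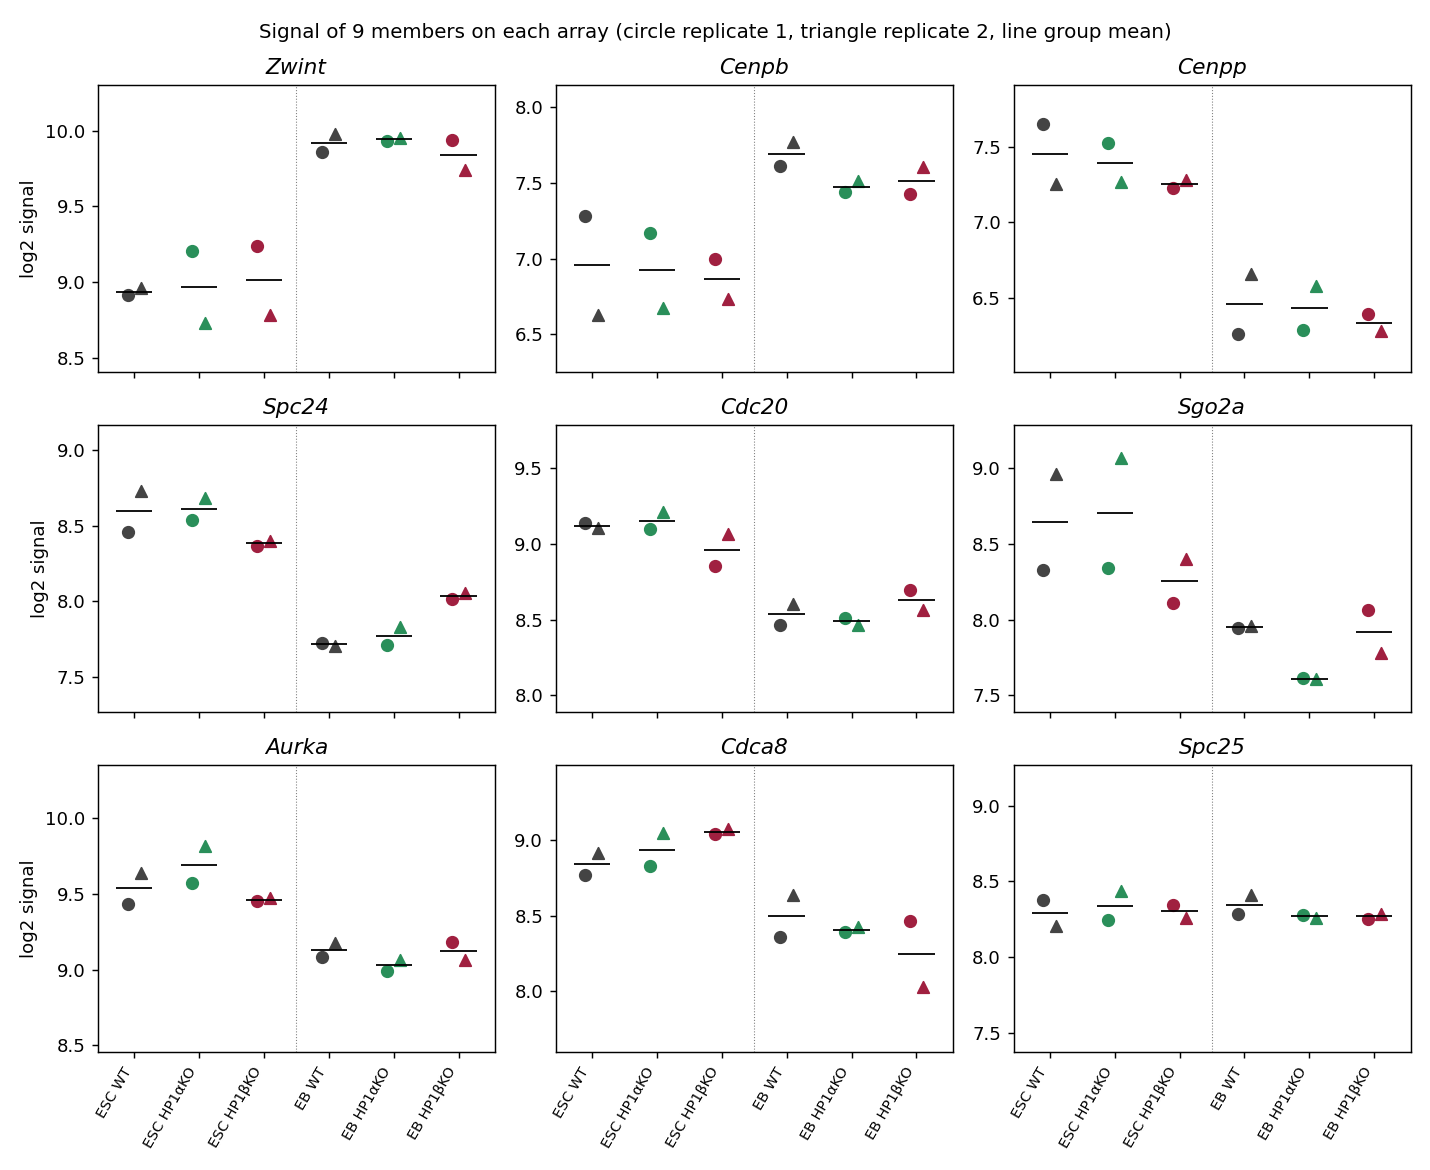
Deposited log2 signal (vertical axis, log2) of 9 members on each of the 12 arrays, by group; circles are replicate 1, triangles replicate 2, and lines group means. All EB signals of Zwint and Cenpb lie above the ESC signals, those of Cenpp, Spc24, Cdc20, Sgo2a, Aurka and Cdca8 lie below, and Spc25 stays between 8.21 and 8.44.

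The 6 genes of the chromosomal passenger complex and of the protectors of centromeric cohesion had the lowest group medians, at -0.42, -0.62 and -0.37 in WT, HP1αKO and HP1βKO. In WT 2 were called lower, in HP1αKO 5 and in HP1βKO 2, and 0 were called higher. The shares of all genes called lower were 14.2%, 16.5% and 15.1%. Sgo1, a shugoshin that shields cohesin at the centromere, stood at 7.92 and 7.88 in ESC WT, 7.93 and 8.16 in ESC HP1αKO, and 7.71 and 7.94 in ESC HP1βKO. In the EBs it stood at 7.43 and 7.57, 7.26 and 7.35, and 7.46 and 7.34. The EB arrays were all under the ESC arrays, by -0.40 ± 0.14 (adjusted p = 0.0476), -0.74 ± 0.14 (adjusted p = 0.00276) and -0.42 ± 0.14 (adjusted p = 0.0381). Of 14 alternative settings, the WT call held in 6, the HP1αKO call in 14 and the HP1βKO call in 10.

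Sgo2a, the second shugoshin, had the largest difference of any member, -1.10 ± 0.26 in HP1αKO (adjusted p = 0.00955, 2.14-fold lower). Its ESC signals were 8.33 and 8.96 in WT, 8.34 and 9.07 in HP1αKO, and 8.11 and 8.40 in HP1βKO, and its EB signals 7.94 and 7.96, 7.61 and 7.61, and 8.06 and 7.78. ESC and EB arrays did not overlap, yet the ESC replicates lay up to 0.73 apart. Without the 2 ESC libraries the HP1αKO difference was -0.73 (adjusted p = 0.0084). A near-identical copy, Sgo2b, exists, so the feature may also read its transcripts.

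Incenp, the scaffold of the passenger complex, was called lower in WT (-0.46 ± 0.15, adjusted p = 0.0356) and HP1αKO (-0.64 ± 0.15, adjusted p = 0.00737). Cdca8, which encodes Borealin, was called lower in HP1αKO (-0.53 ± 0.17, adjusted p = 0.0336) and HP1βKO (-0.81 ± 0.17, adjusted p = 0.00577). It fell in HP1βKO from 9.04 and 9.07 to 8.46 and 8.03, the last being the lowest of all 12 arrays. Birc5, which encodes Survivin, was called lower in HP1αKO (-0.60 ± 0.17, adjusted p = 0.0219). Aurkb, the kinase of the complex, was not called, at 0.04, 0.18 and 0.23, with ESC signals between 9.57 and 9.98 and EB signals between 9.77 and 9.998 that overlapped.

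Of the 7 spindle checkpoint genes, counting Cdc20 as the checkpoint's target, 1 was called lower in WT, 4 in HP1αKO and 0 in HP1βKO. The shares of all genes called lower were 14.2%, 16.5% and 15.1%. Cdc20 activates the anaphase-promoting complex and is held back by the checkpoint. It stood at 9.14 and 9.10 in ESC WT, 9.10 and 9.21 in ESC HP1αKO, and 8.85 and 9.07 in ESC HP1βKO, and at 8.47 and 8.61, 8.51 and 8.47, and 8.69 and 8.56 in the EBs. No EB array reached an ESC array. The differences were -0.58 ± 0.13 (adjusted p = 0.00744), -0.67 ± 0.13 (adjusted p = 0.00321) and -0.33 ± 0.13 (adjusted p = 0.0687).

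The checkpoint kinases followed in HP1αKO. Bub1 (-0.57 ± 0.17, adjusted p = 0.0244), the pseudokinase gene Bub1b (-0.71 ± 0.21, adjusted p = 0.0217) and Ttk, which encodes Mps1 (-0.56 ± 0.15, adjusted p = 0.0129), were called lower there and in no other genotype. All 6 EB arrays of Bub1 and Bub1b lay under all ESC arrays, at 9.26 to 9.61 against 9.64 to 10.1 and at 9.63 to 9.83 against 9.84 to 10.6. The remaining 3 genes, Mad2l1 and Bub3, whose proteins sit in the inhibitory complex, and Zw10 of the RZZ complex, were not called and lay between -0.18 and 0.26.

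Of the 7 genes for spindle kinases, motors and assembly factors, 1 was called lower in WT, 4 in HP1αKO and 0 in HP1βKO. The shares of all genes called lower were 14.2%, 16.5% and 15.1%. All 7 members of this group were below 0 in WT and in HP1αKO and 6 in HP1βKO. Aurka, the centrosomal Aurora kinase, stood at 9.43 and 9.64 in ESC WT, 9.57 and 9.82 in ESC HP1αKO, and 9.45 and 9.47 in ESC HP1βKO, and between 8.99 and 9.18 in EBs. The arrays did not overlap, and the differences were -0.41 ± 0.13 (adjusted p = 0.0407), -0.66 ± 0.13 (adjusted p = 0.00425) and -0.34 ± 0.13 (adjusted p = 0.0766).

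Kif11, the motor that pushes spindle poles apart (-0.55 ± 0.15, adjusted p = 0.0157), Plk1, the Polo kinase (-0.55 ± 0.15, adjusted p = 0.0154), and Cenpf, a large protein of the outer corona (-0.73 ± 0.26, adjusted p = 0.0472), were called lower in HP1αKO. Kif11 lay at 9.17 to 9.49 in ESCs and 8.76 to 8.99 in EBs, and Cenpf at 7.93 to 8.68 and 7.46 to 7.81, each without overlap. The motor gene Cenpe, the microtubule depolymerase gene Kif2c and the assembly factor gene Tpx2 were not called, with differences from -0.46 to 0.02.

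Levels of the members also moved between ESC replicates. Replicate 2 was above replicate 1 for 27, 32 and 29 of 41 members in ESC WT, HP1αKO and HP1βKO, where 56.22%, 55.62% and 46.58% of all genes were higher in replicate 2. For 19 members replicate 2 was higher in all 3 ESC groups and for 2 it was lower, against 23.2% and 18.5% of all genes. In EBs it was higher for 37, 27 and 7 members in WT, HP1αKO and HP1βKO, where the share of all genes was 74.62%, 50.33% and 29.42%. The median deviation of the members from their own mean was 0.08, 0.08 and -0.04 in replicate 1 and 0.23, 0.38 and 0.14 in replicate 2 of the 3 ESC groups, and -0.25 to -0.02 on the EB arrays. The mean of the fibroblast markers ran opposite in ESCs, being lower in replicate 2. That mean was highest in EBs, at 7.14 to 8.18 with 10 to 12 of 14 markers above the floor. Single markers differed from it. Thy1 was 7.47 on ESC WT 1 and under the floor in every EB group, and Fbln2 was 8.40 on ESC WT 1 and at most 6.73 in EBs. The part of these markers in the differences was not tested.

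**Figure D3:**
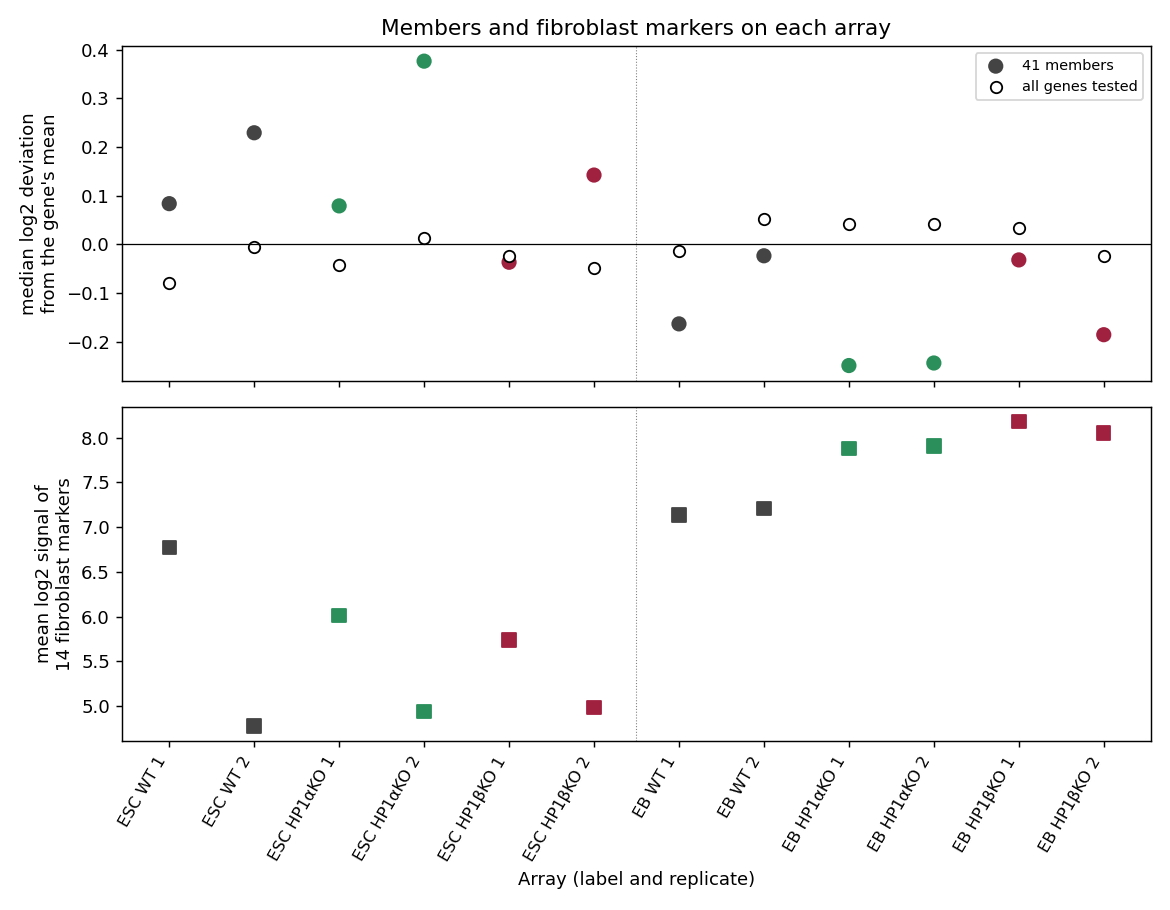
Upper panel, median log2 deviation from the gene's 12-array mean for the 41 members (filled) and all genes tested (open); lower panel, mean log2 signal of 14 fibroblast markers; each point is 1 array, with WT in grey, HP1αKO in green and HP1βKO in red. ESC replicate 2 has the higher member median (0.23, 0.38 and 0.14) and the lower marker mean in each genotype, and all EB arrays are below 0 in the upper panel.

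The second question was whether loss of HP1α or HP1β changed the 41 genes within a state. In no comparison of a knockout with WT was a member called. In ESCs 0% of all genes were called for HP1αKO and 0% for HP1βKO by limma, while at an unadjusted p under 0.05 there were 116 genes and 0 members for HP1αKO and 638 genes and 1 member for HP1βKO. Member differences ran from -0.24 to 0.27 for HP1αKO and from -0.43 to 0.42 for HP1βKO. Both libraries whose Cbx5 opposed the label are in the HP1αKO comparison. Without them ESC HP1αKO 1 alone stood against ESC WT 1 alone. The median member difference was then -0.01 in place of 0.05, and 27 of 41 members kept their sign. The absence of calls for HP1αKO in ESCs therefore does not show that these genes were unchanged. The member under 0.05 was Cenpa, -0.34 ± 0.15 in ESC HP1βKO (adjusted p = 0.846). The 95% confidence interval of a member difference had a median half-width of 0.39, and over all members the intervals for HP1βKO reached from -0.98 to 0.91 and so held differences of nearly 1 either way. Without the 2 ESC libraries whose Cbx5 opposed the label, 1 member, Mis12, was called for HP1βKO, with 1.41% of all genes. Mis12 was higher in HP1βKO, but WT was then the array ESC WT 1 alone. Its signal was 7.78 on that array and between 8.17 and 8.64 on every other ESC array, with 8.45 in the library labelled ESC WT 2. The Mis12 call thus rests on 1 library.

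In EBs, 1.24% of all genes were called for HP1αKO and 3.24% for HP1βKO, and 0 members in either. At an unadjusted p under 0.05 limma gave 1 member of 908 genes for HP1αKO, Cenpn, and 1 of 1372 for HP1βKO, Spc24. For HP1αKO, 30 of 41 members were below 0, as were 42.78% of all genes, and differences ran from -0.40 to 0.24. The arrays did not overlap for 17 members that were lower (41.5%) and 4 that were higher (9.76%), against 23.8% and 34.9% of all genes. The lowest were Cenpn, -0.40 ± 0.17 (adjusted p = 0.533), and Cenpt and Knl1 next. Cenpn stood at 8.54 and 8.71 with WT and at 8.27 and 8.18 without HP1α, and Knl1 at 8.02 and 8.10 and at 7.64 and 7.78. For HP1βKO, which shares its WT arrays with HP1αKO, 19 members were above 0 and 22 below, from -0.33 to 0.32, and the arrays did not overlap for 6 that were higher (14.6%) and 6 that were lower (14.6%), against 27.5% and 28.9% of all genes.

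The median gap between the replicates of a member was 0.14, 0.06 and 0.13 in EB WT, HP1αKO and HP1βKO and 0.21, 0.32 and 0.21 in ESCs, so the EBs were also fitted alone, an alternative chosen after seeing the data. On these 6 arrays 12.1% of all genes were called for HP1αKO and 18.8% for HP1βKO. For HP1αKO 0 members were called, and 7 (17.1%) had an unadjusted p under 0.05, against 27.8% of all genes. Nearest to the threshold were Cenpt (adjusted p = 0.0508), Cenpn (adjusted p = 0.0538) and Knl1 (adjusted p = 0.0547), all lower. For HP1βKO 1 member was called, Spc24, which was 0.32 ± 0.09 higher than WT (adjusted p = 0.0371), in place of 0.32 ± 0.13 (adjusted p = 0.342) with 12 arrays. At an unadjusted p under 0.05 there were 4 members (9.76%) for HP1βKO, against 33.2% of all genes. The median half-width of the interval fell to 0.23.

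The knockout EBs were compared with each other, a comparison that needs no WT array and in which both carry the same line label. With 12 arrays 0 members were called, 1 (Cenpl) had an unadjusted p under 0.05, and 3.73% of all genes were called. On the 6 EB arrays 2 members were called, with 19.9% of all genes. Ttk was 0.32 ± 0.09 higher in HP1βKO (adjusted p = 0.0438), at 8.01 and 7.97 against 7.64 and 7.69. Cenpl differed by -0.38 ± 0.11 between HP1βKO and HP1αKO (adjusted p = 0.046), but its signals of 4.97 and 5.11 against 5.51 and 5.33 straddle the floor. It passed the floor only on ESC HP1αKO 2 and EB HP1αKO 1, at 5.51 on both. Cenpl thus entered the test through the genotype in which it was higher, so nothing is drawn from its call. Markers of ESCs and of cardiomyocytes differed between the EBs too. The 12 ESC markers had a mean log2 signal of 6.47 and 6.68 in EB WT, 5.91 and 5.82 in EB HP1αKO, and 7.42 and 7.18 in EB HP1βKO, with 7 and 7, 6 and 5, and 11 and 10 above the floor. The 10 cardiomyocyte markers had means of 8.13 and 7.98, 8.90 and 8.95, and 5.95 and 5.66, with 9 and 7, 8 and 9, and 6 and 5 above the floor. The part of both lists in these differences was not tested.

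**Figure D4:**
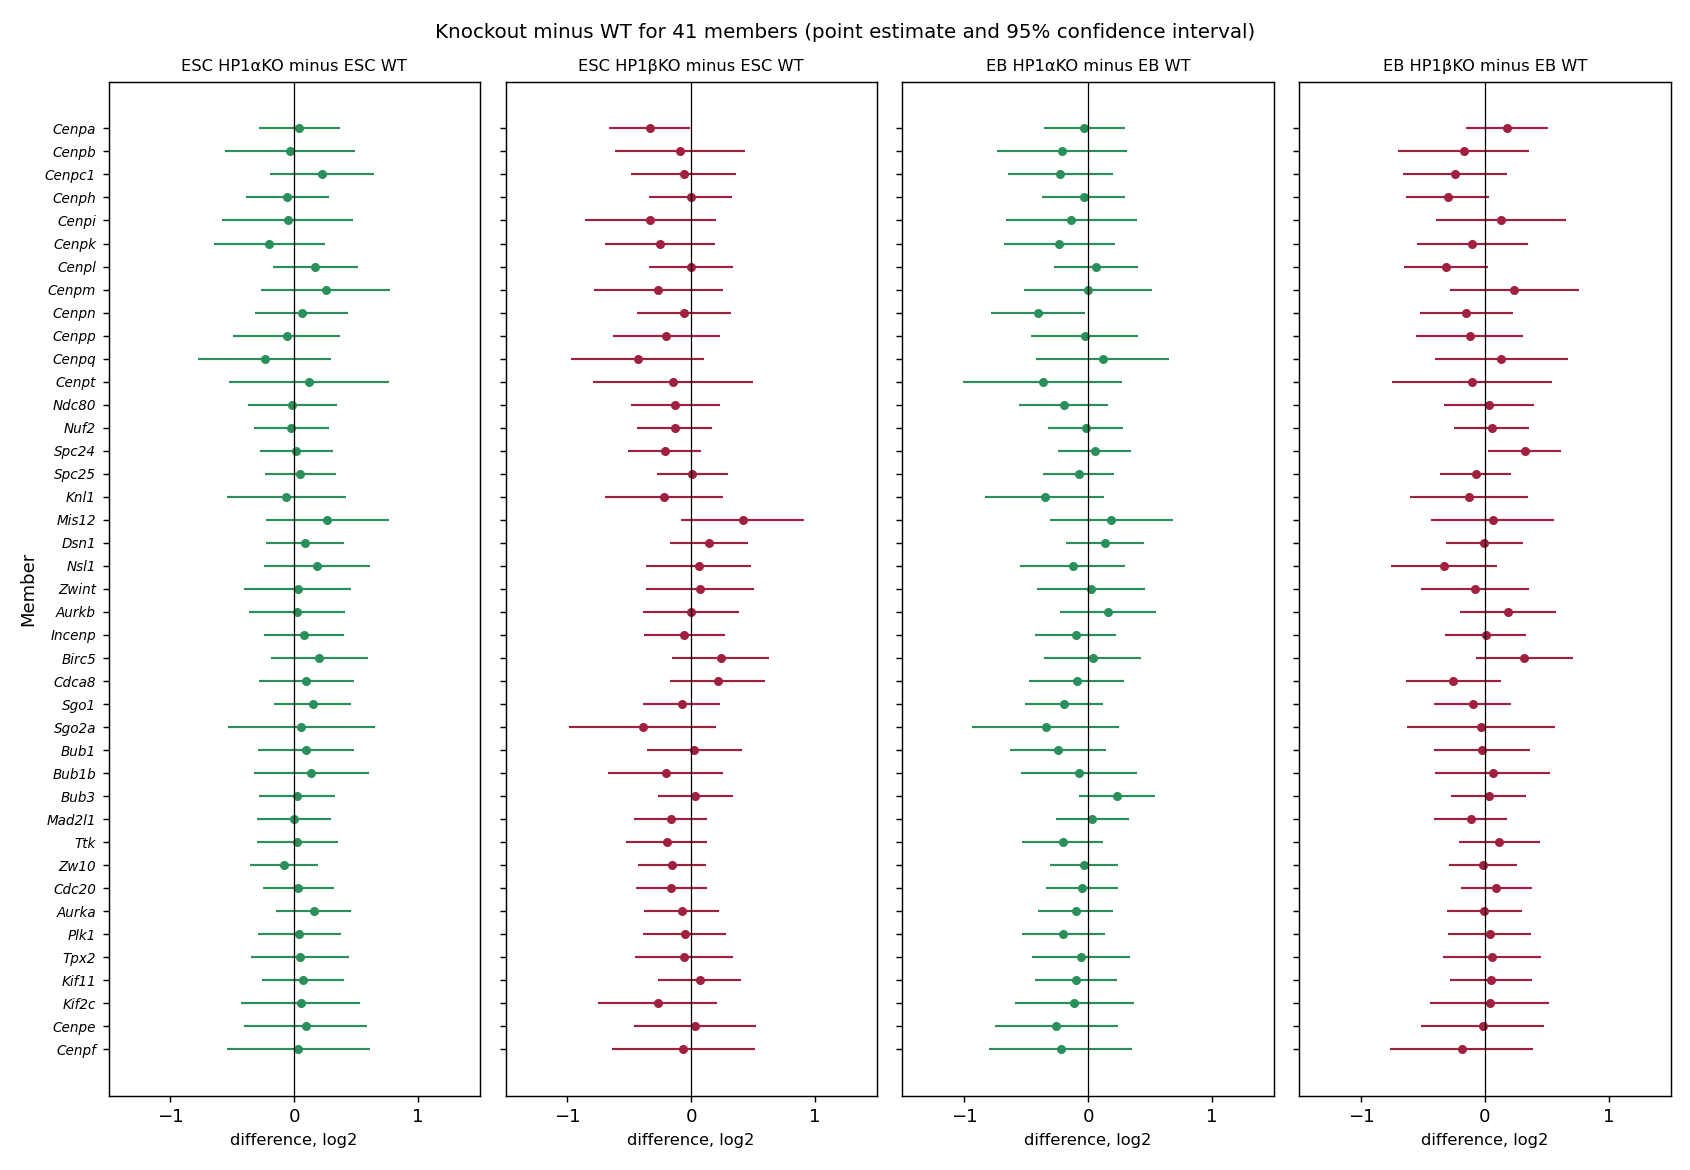
Knockout minus WT difference of mean log2 signals (horizontal axis, log2) with its 95% confidence interval from the 12-array limma fit, for the 41 members in ESCs (left pair of panels) and EBs (right pair). Point estimates stay between -0.43 and 0.42, and none was called after adjustment.

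Genes of the surrounding pathways were counted in the same fits. Of all genes, 14.2%, 16.5% and 15.1% were called lower in EBs in WT, HP1αKO and HP1βKO and 22%, 25% and 22% higher. Of 25 other centromere and kinetochore genes tested, 7, 9 and 10 were called lower in EBs in WT, HP1αKO and HP1βKO and 3, 4 and 1 higher. The falls with the largest sizes in WT were Cenpv (-1.09, adjusted p = 0.00119) and Ska1 (-0.92, adjusted p = 0.00674), a subunit of the microtubule-binding Ska complex. The largest rise was Ska2, of the same complex (1.17, adjusted p = 0.00157), so both directions occurred within that complex as within the outer kinetochore list.

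In the next 4 lists the calls were nearly all lower, though most of their genes were not called. The shares of all genes called lower, 14.2%, 16.5% and 15.1%, apply to each list. Of 29 other spindle motor, microtubule and cytokinesis genes, 5, 13 and 5 were called lower and 0, 0 and 1 higher. Among 17 mitotic kinases, cyclins and regulators, 4, 7 and 5 were lower and 0, 0 and 1 higher, led by Mybl2, a transcription factor of late cell cycle genes (-2.28, adjusted p = 0.00161 in WT). Of 33 S phase and replication genes, 10, 16 and 9 were lower and 0, 0 and 1 higher, led by the cyclin gene Ccne1 (-1.72, adjusted p = 0.000653 in WT). Of 21 cohesin and condensin genes, 5, 8 and 3 were lower and 0 higher, with a median in WT of -0.03, and the lowest was Esco2, a cohesin acetyltransferase (-1.57, adjusted p = 0.00306).

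Genes of cell cycle exit ran the other way: of 16 tested, 6 were called higher in each genotype and 1, 1 and 2 lower. Cdkn1c, an inhibitor of cyclin-dependent kinases, was 2.20 higher in WT (adjusted p = 0.00137), and Gadd45a, a gene induced by DNA damage, differed by -0.86 (adjusted p = 0.00276). Of 14 anaphase-promoting complex genes, 3 were higher in each genotype and 2, 2 and 1 lower. Of all genes, 22%, 25% and 22% were called higher and 14.2%, 16.5% and 15.1% lower. In that complex the scaffold genes Anapc2 (0.68, adjusted p = 0.0123) and Anapc4 (0.63, adjusted p = 0.00395) rose in WT. Its ubiquitin-conjugating enzyme gene Ube2c (-0.43, adjusted p = 0.0256) fell.

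**Figure D5:**
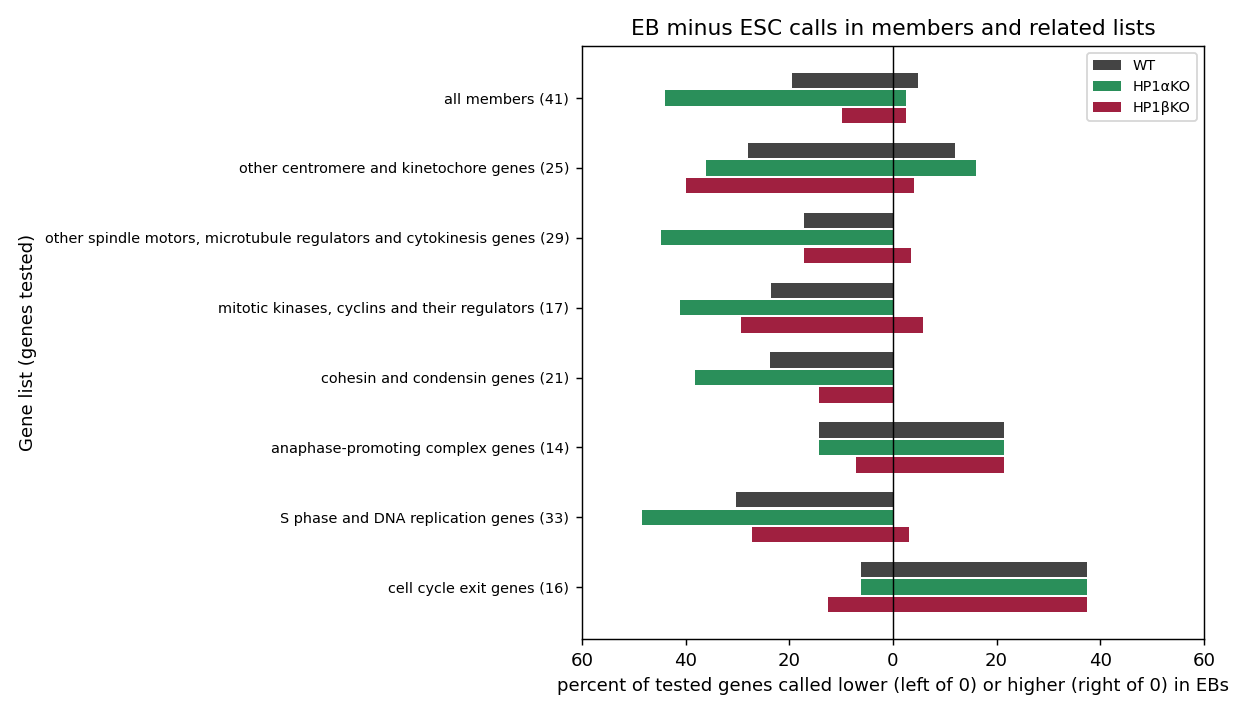
Percent of tested genes called lower (left of 0) or higher (right of 0) in EBs than in ESCs (horizontal axis, percent) for the 41 members and 7 related lists, with the number of genes tested in brackets, for WT in grey, HP1αKO in green and HP1βKO in red. The members run mainly left, at 19.5%, 43.9% and 9.76%, and the cell cycle exit genes mainly right. Of all genes, 14.2%, 16.5% and 15.1% were called lower and 22%, 25% and 22% higher.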

How the data were processed

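RNA was hybridised to 12 Affymetrix arrays, 2 per group, and the log2 signals used here are as deposited. Per the labels, the authors made these log2 values with RMA in Affymetrix Expression Console. Background correction and quantile normalization were thus done beforehand. Software versions were not given in the sources used here, nor was a build of the probe annotation. The identifiers are those of the Mouse Gene 1.0 ST array, whereas the methods name an exon array. Of 35556 features, 21789 have 1 symbol, 1621 several and 12146 none. Only those with 1 were used. By gene number 19856 genes matched a RefSeq table, and no symbol changed. Quantile normalization gives every array nearly 1 distribution, so a shift of all genes cannot be seen, and the number of arrays limits precision.

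Genes above a signal of 45 on at least 1 array entered a linear model (limma 3.58.1, R 4.3.3, empirical Bayes) with a mean for each of 6 groups on all 12 arrays (6 residual degrees of freedom), two-sided, with Benjamini-Hochberg adjustment over 10880 genes per comparison and a threshold of 0.05. The script was tested on simulated data. The members, the lists of related genes, markers and motifs, and the tests were chosen with earlier results of these data known. All members may be named, and of each related list up to 3 of the largest differences. Same-number ESC replicates deviated together (correlations of the replicate differences 0.401, 0.497 and 0.3), EB replicates did not (0.112, -0.454 and -0.092), so numbers pair ESCs by the data only. Alternatives were the floor, centring, features, array weights, blocks, moderation, the arrays in the fit, and leaving out libraries. The ESC-only block, the 6-array fits and the difference of HP1αKO effects were added after seeing the data. Promoter windows are RefSeq's. Aurkb, Spc24, Incenp, Nsl1 and Tpx2 had no window. Probe sequences and proteins were not analysed here.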

Additional observations from a re-analysis of the deposited data

How the results depend on the processing

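Over all 10880 genes tested, the number called in EBs against ESCs was 3941 in WT and 4038 in HP1βKO. Array centring gave 4169 and 4348 genes, array weights 3157 and 4758. With the replicate block among ESCs only, 5136 and 5185 were called. The block in ESCs and EBs gave 4604 in HP1βKO, and the compared groups only gave 2219 in WT. Counts of members called in EBs against ESCs depended on the setting too. In WT, where 10 were called, array centring gave 16, array weights 6, the replicate block among ESCs only 17 and a fit on the compared groups only 3, and leaving out 1 library gave 3 to 13 (3 without EB WT 1, 4 without EB WT 2 and 5 without ESC WT 2). In HP1αKO, with 19, leaving out 1 library gave 7 to 24 (10 without ESC HP1αKO 2, 7 without EB HP1αKO 1 and 8 without EB HP1αKO 2), and no other setting moved the count by over 1.5 times. In HP1βKO, with 5, centring gave 14, array weights 9, the replicate block in ESCs and EBs 9, the replicate block among ESCs only 13, the fit without the libraries labelled ESC WT 2 and ESC HP1αKO 2 gave 15, and leaving out 1 library 2 to 5 (2 without ESC HP1βKO 2, without EB HP1βKO 1 or without EB HP1βKO 2). Of comparisons with 0 members called, ESC HP1βKO against WT gave 1 (Mis12, set against ESC WT 1 alone) without those 2 libraries. EB HP1αKO against WT gave 2 with array weights and 3 on the compared groups only, with 1691 and 1575 of 10880 genes called. EB HP1βKO against WT gave 1 on the 6 EB arrays, with 2043 genes called. EB HP1βKO against EB HP1αKO gave 3 with array weights, 2 on the compared groups and 2 on the 6 EB arrays, and the difference of HP1βKO effects gave 0 to 1 as libraries were left out, 1 (Cenpm) without ESC WT 1. Over all 10880 genes, EB HP1βKO against EB HP1αKO gave 2302 calls with array weights, 2289 on the compared groups and 2167 on the 6 EB arrays. The cause of these changes in the counts was not tested. Fits with fewer arrays have fewer degrees of freedom. The HP1βKO differences between EBs and ESCs do not use the libraries labelled ESC WT 2 and ESC HP1αKO 2. Without those libraries their median stayed at -0.18, so that count moved through the shared estimate of the spread and its degrees of freedom. The replicate block changed no other count by over 1.5 times. Over the member differences named as called, 387 of 491 values under alternatives kept direction and side of the threshold, 103 kept direction but lost the call, 1 gained it and 0 reversed. Cenpp in each genotype, Spc24 and Zwint in WT and HP1αKO, and Cdc20, Aurka and Sgo1 in HP1αKO were called in every setting run. With 2 arrays a group, a leave-one-out fit assumes that the lone array varies like the other groups. Cenpl lies at the floor, so its differences have little range.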
